A study of Mus musculus with 20 samples.

Results

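The part labelled adult oligodendrocytes of the mouse habenula is 50 of the 398 adult wells kept for analysis, and of the 4811 kept wells of the whole series. Only 37 of the 50 are called oligodendrocytes below, since the rest held under 1% of their counts in myelin protein genes. All 50 were chosen by measured values. A well passed when at least 3 of 6 myelin genes (Mog, Mag, Cldn11, Mobp, Ermn and Mal) had at least 1 count and Tac2, a neuropeptide gene of habenula neurons, had fewer than 10. On adult plate 1, 22 of 56 kept wells passed (39.3%, 95% exact Clopper-Pearson interval 26.5 to 53.2), and on adult plate 2, 28 of 342 (8.19%, 5.51 to 11.6). All intervals here cover counting error only. The remaining 348 kept adult wells, 34 and 314 by plate, are the comparison class.

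The habenula is a small epithalamic structure made mostly of neurons that project to the midbrain. The study followed its cells by CEL-Seq2, a single-cell RNA-seq method in which the RNA of 1 lysed cell a well is primed on the poly-A tail and each molecule carries a unique molecular identifier (UMI), on 20 plates from the embryo to the adult. The 2 adult plates came from adult mice of the Brn3a-tauLacZ line, named for a reporter at the Brn3a (Pou4f1) gene of habenula neurons, and members and other wells alike come from it. The sources used here state neither the animals' genotype at that gene nor their exact age, number, pooling or treatment, nor how cells were brought into the wells. The plates carry the same 384 well barcodes by design, so that a barcode does not mark a cell across plates. The plate is the sample, and members and other wells are compared within each of the 2 plates. Because the members were selected on their counts, every comparison with the other wells is a description and carries no test.

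Oligodendrocytes wrap axons of the central nervous system in myelin, a compacted membrane rich in cholesterol, galactolipids and a few very abundant proteins. They arise from Pdgfra-expressing precursors, pass a short differentiating stage, and then hold a mature program run by transcription factors such as Sox10, Myrf and Nkx6-2. Mature cells also feed axons with lactate and buffer potassium, and they differ among themselves in genes such as Ptgds, Klk6 and Apod.

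The members were shallow wells. Their median depth was 2234 counts on plate 1 (1029 to 14570) and 5816 on plate 2 (2812 to 10837), against 9062 and 11621 in the other kept wells. The Tac2 limit is a raw count not scaled to depth, so low depth and low Tac2 in members follow in part from the rule. Among the wells of plate 1 that this limit kept out were wells of 10233, 17367 and 20599 counts with all 6 markers. On plate 1, 11 of the 22 members had fewer than 2000 counts. Mitochondrial counts had a median share of 13.8% and 6.47% in members and 10.9% and 5.23% in the others. Tac2 had at least 1 UMI in 21 of 22 and 27 of 28 members. Tac2 stood at 807 and 559 CPM (counts per 1000000 summed counts of a class) in members, at 2074 and 2189 in the other kept wells and at 5480 and 2784 in the 319 and 35 wells with fewer than 1000 counts. The part of RNA free in solution in the members' low counts was not tested.

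The limits of the rule cut the plates differently. With at least 5 markers 13 wells of plate 1 and 26 of plate 2 passed, and with at least 2000 counts a well 11 and 28. With no Tac2 limit 44 and 47 passed, so the comparison class holds wells with 3 or more markers that only Tac2 kept out. The 39.3% of plate 1 thus depends on these limits. On plate 2 the number of markers was split, with 25 members at all 6 markers, 1 at 5, none at 4 and 2 at 3. On plate 1 it was spread, with 7, 2, 6 and 7 members at 3, 4, 5 and 6 markers. Just outside the marker limit, 3 wells of plate 1 and 15 of plate 2 had 2 markers and Tac2 under 10. At the Tac2 limit, a member with 8 Tac2 UMIs had 0.344% of its counts in the 14 myelin protein genes described next, whereas the nearest wells outside had 10 UMIs with 1.88% and 11 UMIs with 0.236%. No well of the other 18 plates passed: 0 of 4413 kept wells, which allows a share of up to 0.0680%, had more than 2 markers. On the 4 plates of postnatal days 4 and 7 it was 0 of 1229, which allows up to 0.244%. Ermn has no row in the table of the left and right E18 plates, so those were read on the other 5 markers.

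A list of 14 myelin protein genes that the rule did not use, among them Mbp, Cnp, Opalin and Tspan2, served to check the label within the members. Their summed counts made up 0.0478 to 2.25% of a member's counts on plate 1 (median 1.14%) and 0.0286 to 2.60% on plate 2 (median 1.97%), against medians of 0.174% and 0.0479% in the other wells. On plate 2 a gap was visible: 26 members held 1.05 to 2.60% and 2 held 0.0286 and 0.0532%. On plate 1 the values were spread, with 11 members at 1.33 to 2.25% and 11 from 0.0478 to 0.952%. A limit of 1%, set after the values were seen, separates 37 myelin-high from 13 myelin-low members. The name oligodendrocyte is used for the 37 myelin-high wells, and the 13 myelin-low wells, several of which carry markers of another cell type, are described apart. On plate 1, 3 wells outside the members held 1.09 to 1.88%, with Tac2 at 10, 21 and 34 UMIs and all 6 markers. These 3 wells belong to the comparison class of plate 1 and enter the folds given for it.

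**Figure D1:**
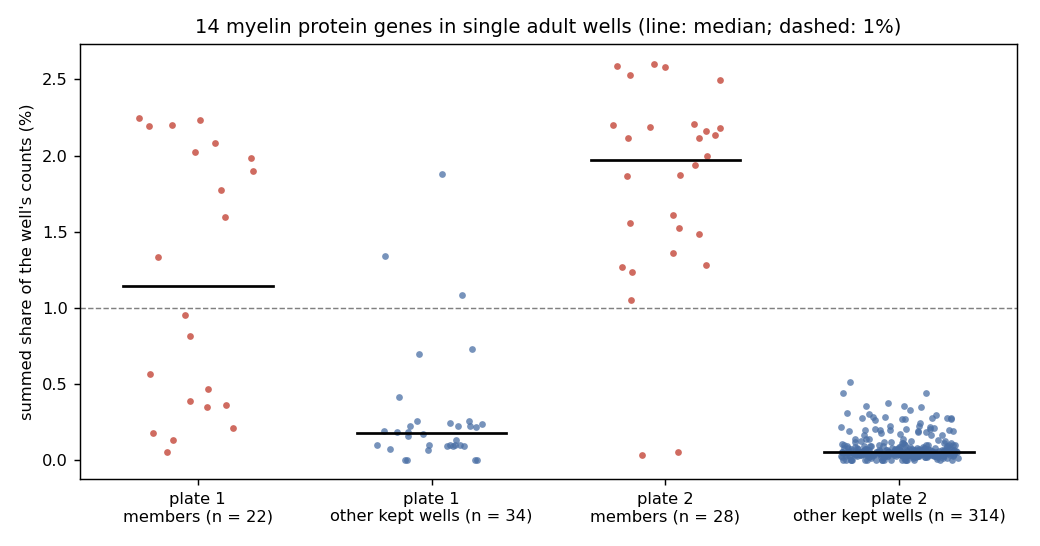
Summed share of each adult well's counts in 14 myelin protein genes (%, y axis) for members and other kept wells of the 2 plates (x axis). Each point is a well, the bar is the median, and the dashed line marks 1%. On plate 2 members lie at 1.05% or more or at 0.0532% or less, and 3 other wells of plate 1 lie at 1.09 to 1.88%.

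Of 9708 genes with at least 10 summed counts on each plate, 182 (1.87%) were at least 4-fold higher in the members on both plates and 294 (3.03%) at least 4-fold lower. With the 37 myelin-high wells against the kept wells under the 1% limit, 356 of 9462 genes (3.76%) were higher and 373 (3.94%) lower. Of the calls, 167 higher and 150 lower genes were shared by both comparisons. The comparisons use largely the same wells, and the median gene stood at -0.27 and -0.17 on the log2 scale. Without wells above 3 times their plate's median depth, fewer genes could be tested, and 72 of 4864 (1.48%) were higher and 145 (2.98%) lower. With every well weighted alike, 93 of the 9708 (0.958%) were higher and 194 (2.00%) lower.

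The genes used for selection were higher in members as the rule sets. Mog, a glycoprotein of the outer myelin surface (chromosome 17, 37010743 to 37023398, minus strand), was at 1128 and 1411 CPM in members of plates 1 and 2 and at 166 and 10.1 CPM in the others. Mag, the sialic-acid-binding adhesion protein next to the axon (chromosome 7, 30899176 to 30914873, minus strand), was at 1826 and 3256 CPM against 498 and 26.4. Mal, a lipid-raft membrane protein (chromosome 2, 127633226 to 127656695, minus strand), was 12.8-fold and 189-fold higher. Within the myelin-high wells, the markers were near complete on plate 2, where Mog, Mag, Cldn11, Mobp and Mal each had a UMI in 26 of 26 wells and Ermn in 25. On plate 1, Mag, Cldn11 and Ermn had a UMI in 11 of 11, Mog and Mal in 9 and Mobp in 8. Cldn11, the claudin that seals myelin layers (chromosome 3, 31149920 to 31164324, plus strand), carried 1, 16 and 74 UMIs (lowest, median, highest) in myelin-high wells of plate 1 and 8, 18.5 and 46 on plate 2. In the other kept wells it reached 90 UMIs on plate 1 and 3 on plate 2, and the 2 myelin-low members of plate 2 had 0. Cldn11 helped to choose the members, so its distance between classes follows in part from the selection.

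Structural genes of myelin that played no part in the selection were higher in part. Of the 14 genes on the list of myelin proteins, 6 were called higher in all members, against 1.87% of all genes, and 8 were not, with a median log2 fold of 3.50 against -0.27 over all genes. Among those not called were Nfasc, which codes for a node adhesion protein, at 1.84-fold and 3.96-fold on plates 1 and 2, and Jam3, a junction adhesion protein, at 2.65-fold and 2.81-fold. The list set the 1% limit, so its values in the myelin-high wells are a description only. Mbp, the basic protein that compacts the cytoplasmic faces of myelin, was at 3913 against 520 CPM on plate 1, 7.52-fold (counting interval 6.50 to 8.71), and at 7511 against 37.1 on plate 2, 202-fold (173 to 238). Single myelin-high wells carried 6, 9 and 140 Mbp UMIs (lowest, median, highest) on plate 1 and 12, 50.5 and 121 on plate 2. Every myelin-high well had the gene, and the other kept wells reached 94 and 42 UMIs, so the classes overlapped. Wells with fewer than 1000 counts held Mbp at 3353 and 3761 CPM, close to the members of plate 1.

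Cnp, the phosphodiesterase that keeps cytoplasmic channels in myelin, was 5.05-fold and 57.0-fold higher in members. It carried 5, 16 and 118 UMIs in the myelin-high wells of plate 1 and 11, 29.5 and 65 on plate 2, whereas the other wells reached 99 and 13, so the classes overlapped on both plates. Opalin, a sialylated membrane protein of the myelin loops, was at 676 against 143 CPM and 593 against 4.94 CPM. The tetraspanins Tspan2 and Cd9 were 7.48-fold and 7.49-fold higher on plate 1, and 73.5-fold and 7.61-fold on plate 2. Cd9 differs from the other 5 called genes in that its fold was alike on both plates. Gjb1, a gap junction connexin of oligodendrocytes, was at 3.40-fold on plate 1, below the limit, and at 197-fold on plate 2. Hapln2, a link protein of the node matrix, had 4 member counts against 11 on plate 1 (2.22-fold) and 59 against 2 on plate 2 (817-fold, 216 to 6900).

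The 250 bases before the start of these genes were searched for the CTGGCAC or CTGGTAC core of the Myrf recognition motif on both strands, since Myrf drives myelin genes in maturing cells. RefSeq windows (build GRCm38.p6) were found for 16 of the 20 rule and myelin protein genes, and 4 of the 16 (25%) held the core, against 1836 of 27025 genes (6.79%) and 1947 of 32851 windows (5.93%) in the whole table. The sequences below show the hits, 5′ to 3′ along the gene, with the core in capitals and up to 40 bases on each side.
Mag, chr7:30914885-30914971, minus strand: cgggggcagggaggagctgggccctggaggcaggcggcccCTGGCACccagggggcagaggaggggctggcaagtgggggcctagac
Mog, chr17:37023435-37023521, minus strand: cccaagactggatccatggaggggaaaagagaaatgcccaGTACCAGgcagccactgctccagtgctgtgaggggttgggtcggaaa
Cnp, chr11:100574818-100574904, plus strand: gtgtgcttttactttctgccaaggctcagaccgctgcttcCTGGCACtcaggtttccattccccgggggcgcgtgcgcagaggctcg
Hapln2, chr3:88027609-88027695, minus strand: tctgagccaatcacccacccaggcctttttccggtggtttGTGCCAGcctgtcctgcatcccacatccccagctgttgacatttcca
The core ends 62 bases before the RefSeq start in Mag, 77 in Mog, 75 in Cnp and 138 in Hapln2. A second RefSeq start of Mag lies closer, so that there the same core ends 3 bases before it. In Mog and Hapln2 it reads on the opposite strand, as GTACCAG and GTGCCAG. A match of 7 letters is a description of the window and says nothing of binding, and the 12 genes without one had no such letters in these 250 bases.

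Enzymes of the myelin lipids were higher in part. Of 12 tested, 5 were called in members (median log2 fold 2.91) and 10 in the myelin-high wells, against 1.87% and 3.76% of all genes. Ugt8a, which makes galactosylceramide, was 6.91-fold and 60.6-fold higher on plates 1 and 2, and Fa2h, which hydroxylates its fatty acid, was 4.82-fold and 97.2-fold. Gal3st1, which sulfates galactosylceramide to sulfatide, was 5.35-fold and 18.5-fold higher, from 7 and 26 member counts. Scd2, a fatty acid desaturase, was at 3426 against 792 CPM and 6002 against 281 CPM. Aspa, which splits N-acetylaspartate and so yields acetate for lipids, was 3.32-fold and 302-fold higher and was called in the myelin-high wells (29.0-fold and 319-fold). Fasn, the fatty acid synthase, was at 3.57-fold and 2.53-fold and was not called. Of 12 tested genes of the cholesterol pathway none passed in either direction, in members or in the myelin-high wells, and their median log2 folds were 0.30 and 0.14. A count of 0 of 12 is near the 1.87% higher and 3.03% lower over all genes, and the difference from the lipid enzymes was not tested. Sqle, the squalene epoxidase of that pathway, was at 46.9 against 59.8 CPM and 34.2 against 63.3 CPM, with 5 and 6 member counts.

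**Figure D2:**
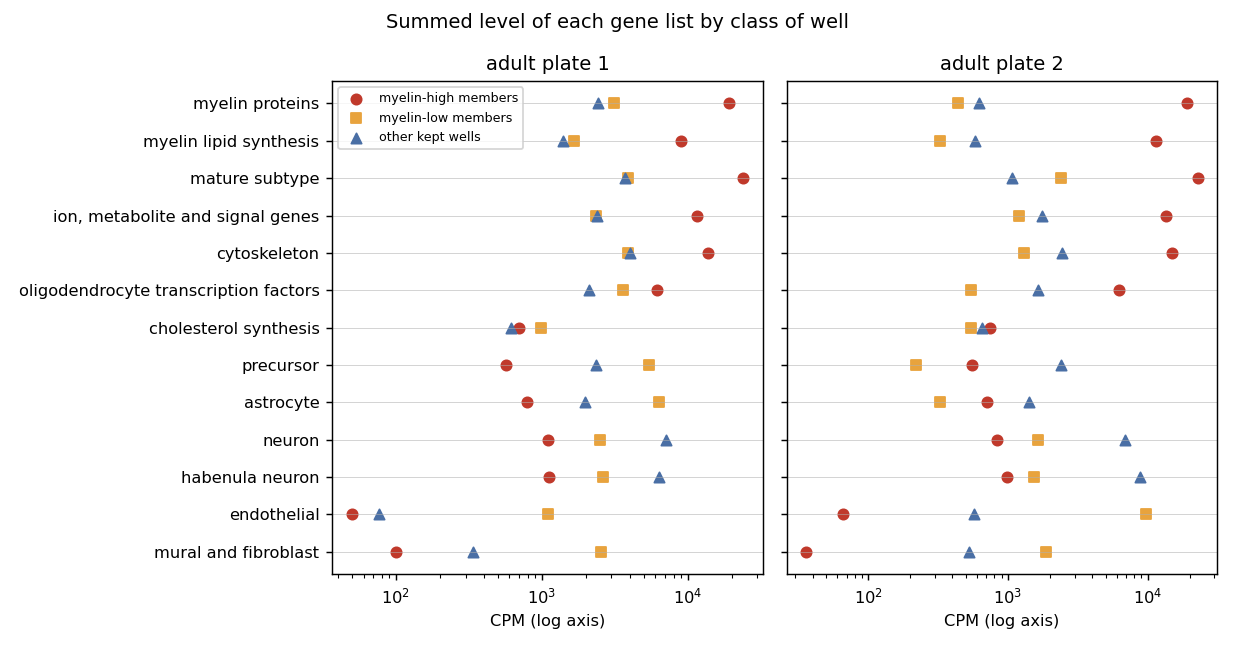
Summed level of each gene list (CPM, log axis) in myelin-high members, myelin-low members and other kept wells of each plate. The myelin protein list, which set the 1% limit, stood at 19140 and 19231 CPM in myelin-high wells against 2442 and 622 in the others. On plate 1, the lists of neurons, astrocytes and precursors were each lower in the myelin-high wells than in either other class.

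Transcription factors of the lineage were higher in part. Of 11 tested, 5 were called higher, against 1.87% of all genes, namely Sox8, Myrf, Nkx6-2, St18 and Carhsp1. Nkx6-2, a homeobox factor of myelinating cells (chromosome 7, 139579376 to 139582797, minus strand), was at 169 against 6.13 CPM on plate 1 (27.5-fold, 9.06 to 112) and at 279 against 2.47 on plate 2 (113-fold, 59.2 to 233). It was found in 9 of 11 and 20 of 26 myelin-high wells, and in 4 of 34 and 11 of 314 other wells. Myrf, the membrane-bound master factor of myelin genes, was 4.08-fold and 47.2-fold higher. On plate 2 it had a UMI in 26 of 26 myelin-high and 57 of 314 other wells. Thinned to 2000 UMIs a well, Myrf was found in 20 of 26 myelin-high wells and 7 of the 295 other wells deep enough on plate 2. On plate 1 it was found in 1 of 5 and 5 of 26 such wells, too few to compare at this depth. St18, a zinc finger factor, was 5.90-fold and 154-fold higher.

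Sox10, which all oligodendrocyte stages express, was 2.70-fold and 8.25-fold higher in members and passed the limit on both plates in the myelin-high wells (5.06-fold and 8.62-fold). It was found in 23 of 26 myelin-high wells of plate 2 after thinning and in 76 of 295 others. On plate 1 it was found in 5 of 5 and 16 of 26, again too few to compare at this depth. Olig1 and Olig2, the basic helix-loop-helix factors of the lineage, did not pass on both plates: Olig1 was at 3.39-fold and 3.72-fold, and Olig2 at 4.19-fold and 2.80-fold. The mean log2 fold of Olig1 was 1.83, and 0.98 with every well weighted alike. Tcf7l2, a Wnt effector of differentiating oligodendrocytes that habenula neurons also express, went the other way. It was 2.21-fold and 6.25-fold lower in members and 7.11-fold and 6.54-fold lower in the myelin-high wells.

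Sums of precursor-stage genes in members differed between the plates, and on plate 1 their direction turned on 1 well. None of 9 tested precursor genes was called in members, which is near the 1.87% and 3.03% over all genes, and their median log2 fold was -0.99. Their summed level in members was above the others on plate 1 (2662 against 2358 CPM) and below them on plate 2 (536 against 2402 CPM). On plate 1, a myelin-low well of 9468 counts held 1.65% of its counts in these genes, with 46 Lhfpl3 and 46 Ptprz1 UMIs. Without that well the sum of plate 1 would lie below the others. Ptprz1, a receptor phosphatase, was at 2.07-fold (1.63 to 2.59) on plate 1 and 0.275-fold on plate 2, and Sox6, a precursor transcription factor, at 1.84-fold and 0.124-fold. In the myelin-high wells the list summed to 564 and 554 CPM, and 3 of 9, Pdgfra, Lhfpl3 and Sox6, were called lower, against 3.94% of all genes. Pdgfra, the receptor of the precursor growth factor PDGF, was at 113 against 133 CPM in members of plate 1, where 11 of its UMIs came from 1 myelin-low well. On plate 2 it had 1 member count against 730 in the others. It was detected in 1 of 11 and 1 of 26 myelin-high wells, at 1 UMI each, against 11 of 34 and 81 of 314 other wells. Of the differentiating list, 8 genes were tested. Tmem2 was called lower in members, from 1 and 3 counts, against 3.03% of all genes. Tmem163 was called lower in the myelin-high wells, against 3.94% of all genes. Enpp6, a choline phosphodiesterase of newly formed oligodendrocytes, was called higher in the myelin-high wells, at 19.9-fold and 227-fold, where 3.76% of all genes were.

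Genes that mark kinds of mature oligodendrocyte were 4 of 15 called in members (median log2 fold 3.19) and 10 of 15 in the myelin-high wells, where 1.87% and 3.76% of all genes were called. Ptgds, the prostaglandin D synthase (chromosome 2, 25466709 to 25470046, minus strand), was at 7769 against 1260 CPM on plate 1 and 5517 against 59.1 CPM on plate 2. The wells with fewer than 1000 counts of plate 1 held Ptgds at 10913 CPM, above its members, and its part in the members' level was not tested. Trf, the iron carrier transferrin, was 5.02-fold and 366-fold higher. Il33, a nuclear cytokine released by damaged cells (chromosome 19, 29925114 to 29960718, plus strand), was at 432 against 56.8 CPM and 850 against 8.86 CPM, and was found in 24 of 26 myelin-high wells of plate 2 and 23 of 314 others. Car2, a carbonic anhydrase, was not called in all members and was in the myelin-high wells, at 9.40-fold and 49.7-fold. Apod, a lipid-binding apolipoprotein, was 1.51-fold and 25.1-fold higher and was not called.

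The myelin-high wells of plate 2 were not alike in these genes. Klk6, a secreted serine protease of a mature oligodendrocyte subset (chromosome 7, 43824499 to 43832030, plus strand), was found in 5 of the 26 wells, at 1, 1, 3, 9 and 17 UMIs. Those same 5 wells had 0 Ptgds UMIs, and the other 21 had 4, 41 and 135 (lowest, median, highest). S100b, a calcium-binding protein (chromosome 10, 76253853 to 76261159, plus strand), had 2, 4, 5, 9 and 19 UMIs in the 5 wells and 1 UMI in 1 of the other 21. The share of all genes whose values likewise do not overlap between the 5 and the 21 wells was not counted. The 5 wells were picked for Klk6 after values had been seen, so this is a description of 26 wells of 1 plate. On plate 1, Klk6 was at 0 in all 11 myelin-high wells, with Ptgds at 2, 82 and 168 UMIs and S100b in 5 wells at up to 5 UMIs. Klk6 reached 1 UMI in 1 of 34 and 3 of 314 other wells. S100b was more common there, in 11 of 34 and 72 of 314 wells at up to 19 and 13 UMIs.

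Other genes also differed across this split, in part from few counts. Of 1583 genes with at least 20 summed counts in the 26 wells, 11 (0.695%), the selecting gene Klk6 included, were at least 4-fold higher in the 5 Klk6 wells and 38 (2.40%) at least 4-fold lower. Many of the lower genes had 1 count in the 5 wells, as Rps15 (1 against 28.0) and Tardbp (1 against 22.0). The part of counting error in these calls was not tested. Plin3, a lipid droplet coat protein, was found in 5 of 5 wells against 3 of 21, and Hopx, a homeodomain-only protein, in 4 of 5 against 5 of 21. In the other kept wells Plin3 was found in 3 of 34 and 24 of 314, and Hopx in 26 of 34 and 213 of 314. Enpp6, named above as a gene of newly formed oligodendrocytes, was 6.17-fold higher in the 5 wells, with a UMI in 4 of 5 against 6 of 21. Cd9 had a UMI in 1 of 5 against 19 of 21 wells, and Il33 in 3 of 5 against 21 of 21. Ptgds was at least 110-fold lower, counted against a floor of 3 counts over the 5 wells. Kirrel3, an adhesion protein at 0 in the 5 wells, was found in 13 of the 21. Apod was in all 26 wells, at 10, 34 and 47 UMIs against 1, 7 and 34. Mbp was similar across the split, at 7286 against 8133 CPM. The 5 wells were the deeper, with a median of 8571 against 5720 counts, and depth was not tested as a part of the difference.

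**Figure D3:**
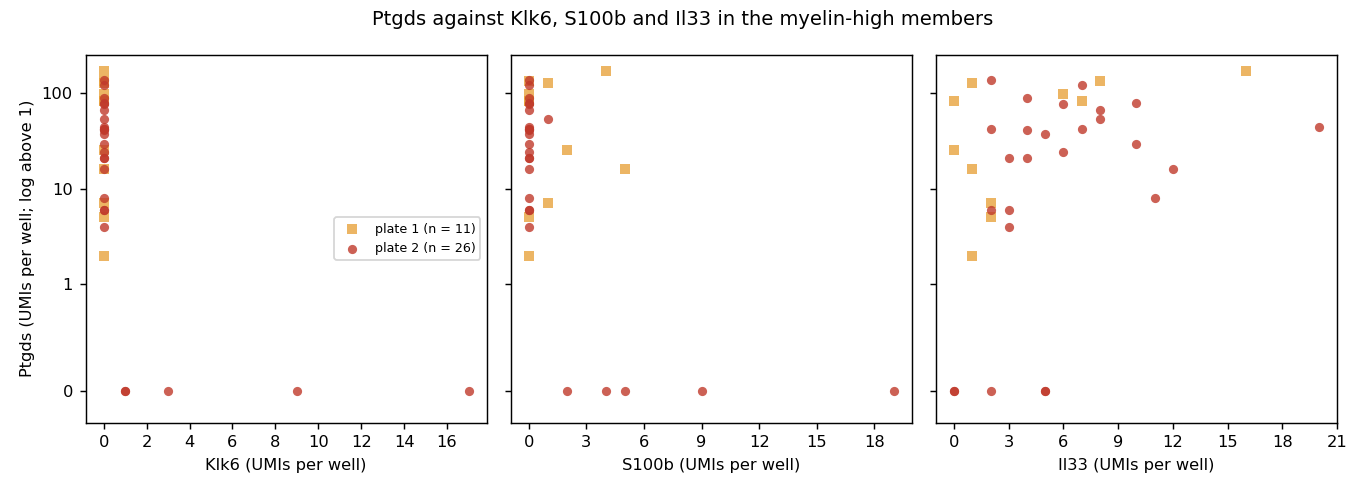
Ptgds UMIs per well (y axis, log scale above 1) against UMIs per well of Klk6, S100b and Il33 (x axes) in the 37 myelin-high members, 11 of plate 1 and 26 of plate 2. Each point is a well. The 5 wells with Klk6 lie at 0 Ptgds, and each of the other 32 wells lies at 2 or more.

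Genes of axon support, signalling and ion handling were called in 7 of 16 in members (median log2 fold 2.72) and in 9 of 15 in the myelin-high wells, beside 1.87% and 3.76% over all genes. Enpp2, the lysophosphatidic acid-making enzyme autotaxin, was at 1666 against 252 CPM and 2979 against 57.5 CPM. Gatm and Gamt, the enzymes of creatine synthesis, were 8.77-fold and 5.17-fold higher on plate 1 and 54.4-fold and 9.09-fold on plate 2. Slc16a1, the monocarboxylate carrier that exports lactate, was 5.84-fold and 7.83-fold higher from 21 and 30 member counts. Gpr37, an orphan receptor of maturing oligodendrocytes, was 7.06-fold and 116-fold higher. Kcnj10, the inward rectifier potassium channel of glia, was 3.44-fold and 12.0-fold higher, below the limit on plate 1, and was called in the myelin-high wells. Of the cytoskeleton list 3 of 15 were called in members (1.87% over all genes), Sept4 and Anln, which belong to the septin scaffold of mature myelin, and the small heat shock protein Cryab (5.13-fold and 58.7-fold). Tubb4a, a beta-tubulin of oligodendrocytes, was 2.44-fold and 8.01-fold higher in members. It was called in the myelin-high wells, as 8 of 14 tested genes of the list were (3.76% over all genes).

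The 25 genes highest by their smaller fold over the plates were led by Nkx6-2, Adamtsl4, Tmbim1 and Rasgrp3. Among them were 2 rule genes, Ermn and Mal, and 7 of the 25 were on the fixed lists. All 25 were also called in the myelin-high comparison, as were 167 of all 182 genes called higher. That comparison uses largely the same wells, so it is no separate support. Adamtsl4, an extracellular matrix protein of the ADAMTS-like family, was 17.1-fold (5.83 to 60.7) and 73.8-fold (37.0 to 157) higher. Rasgrp3, a Ras guanine nucleotide exchange factor, was 61.1-fold higher on plate 1 with a counting interval of 8.70 to 2653, from 10 member counts against 1, and 16.8-fold on plate 2. Kcnk13, a tandem-pore potassium channel, was 10.9-fold and 47.3-fold higher, and Car14, a membrane carbonic anhydrase, 9.79-fold and 108-fold. Tmem63a, a mechanosensitive channel, was 9.17-fold and 321-fold higher, the widest gap between plates among these after Ermn. Of the 25, 15 overlap another annotated gene in GENCODE M21, and the sources used here do not say whether counting used strand, so their reads may include those of a neighbour. Nkx6-2 overlaps Inpp5a and Sox8 overlaps 2810468N07Rik, both on the other strand.

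**Figure D4:**
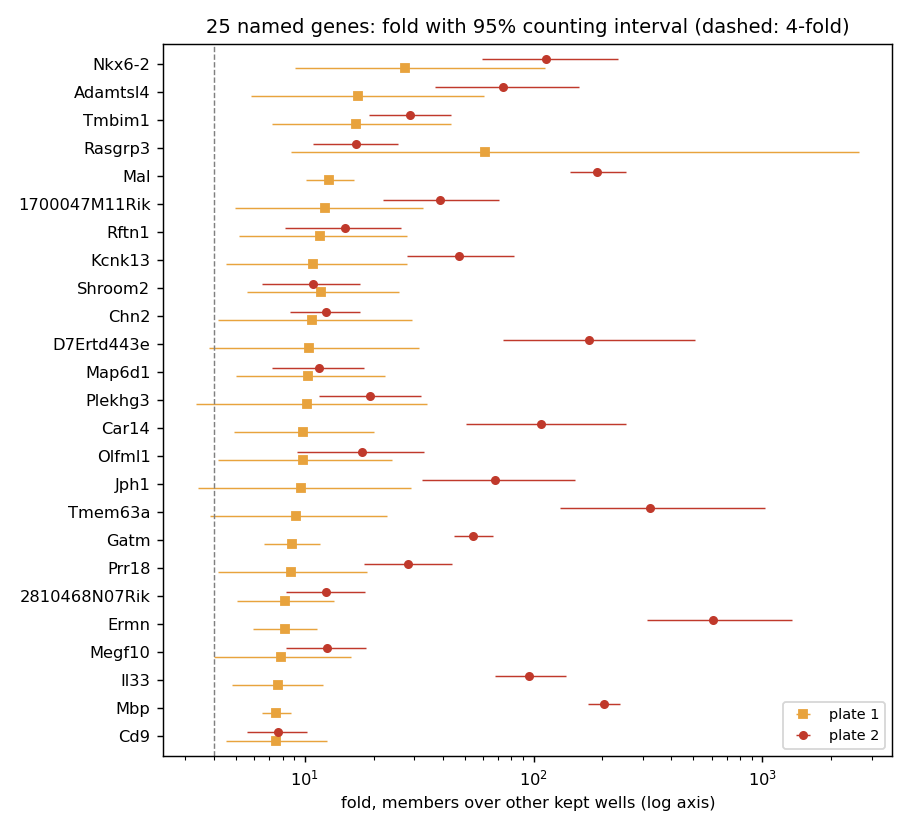
Fold of members over other kept wells (log axis) for the 25 genes highest by their smaller fold, one row per gene, with 95% counting intervals; squares are plate 1, circles plate 2, and the dashed line is 4-fold. Intervals of plate 1 are wide where counts are few, as for Rasgrp3, and the lowest fold shown is 7.49.

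Genes of neurons were lower in part. Of 10 neuronal genes tested, 5 were called lower in members (median log2 fold -2.49) and 5 in the myelin-high wells; of 12 habenula neuron genes it was 5 and 6, with Tac2 in the list and in the rule. Over all genes, 3.03% were called lower in members and 3.94% in the myelin-high wells. Syt1, the synaptic vesicle calcium sensor, was 16.4-fold and 12.2-fold lower. Its mean log2 fold over the plates of -3.82 was -2.61 with every well weighted alike and -3.21 without the deep wells. Gpr151, an orphan receptor of habenula projection neurons, was 6.10-fold and 28.3-fold lower from 5 member counts on each plate. Snap25, a synaptic fusion protein, had at most 4 UMIs in any myelin-high well, against up to 199 and 101 in the others. The 10 lowest genes by the same measure were Tmem131l, Nefm, Srrm3, Rgs17, Napb, Sphkap, Vstm2l, Cacna1e, Abhd8 and Bex1, with 1 to 9 member counts each on a plate. Cacna1e, a voltage-gated calcium channel, was 13.7-fold and 14.3-fold lower from 5 and 9 counts. Of the 10, 4 were also called lower in the myelin-high comparison.

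Markers of astrocytes and vessel cells summed to less in the myelin-high wells than in the others. None of 10 astrocyte genes was called, which is near the share over all genes, and their summed level was 796 and 704 CPM in myelin-high wells against 1988 and 1407 in the others. Microglial genes had low class sums, at 18.8 and 57.0 CPM in members against 29.1 and 51.3 in the others, where 1 well of plate 2 held 29350 CPM, and 8 of 10, with Cx3cr1, Csf1r and Tmem119 among them, were at 0 in members. Endothelial genes summed to 49.7 and 66.2 CPM in myelin-high wells against 76.7 and 569 in the others. Mural and fibroblast genes summed to 99.5 and 36.1 CPM against 335 and 528, and 3 of 6, Rgs5, Vtn and Dcn, were called lower in the myelin-high wells, against 3.94% of all genes. These calls are against the kept wells under the 1% limit, which include the myelin-low members. On plate 1, 2 of those members held 26 and 21 Rgs5 UMIs and 17 and 12 Vtn UMIs. No other kept well of plate 1 had more than 2 and 6. Of genes induced by tissue dissociation 0 of 10 were called in members (median log2 fold -0.68), again near the share over all genes. In the myelin-high wells 1 of 9, the early response gene Egr1, was called lower (median -1.14), against 3.94% of all genes.

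The 13 myelin-low members carried markers of other cell types in several cases. Rgs5 and Vtn, of mural cells, had 26 and 17 UMIs in 1 well of plate 1 and 21 and 12 in another. Slc1a2, the astrocyte glutamate transporter, had 17 and 24 UMIs in a pair of wells, with Gja1 and Aqp4 also present. A further well of 9468 counts had 11 Pdgfra, 46 Lhfpl3 and 46 Ptprz1 UMIs, genes of the precursor list, and 50 Olig1 UMIs. Flt1, an endothelial receptor, had 13 UMIs in 1 well of plate 1 and 40 in 1 of plate 2. The second myelin-low well of plate 2 had 6 UMIs of Foxj1, the factor of ciliated cells, and both of them carried Fos, an early response gene, at 17 and 19 UMIs. The other 5 wells of plate 1 had 1029 to 1475 counts and no more than 3 UMIs of any of these genes. Of them, the wells of 1475 and 1195 counts had 6 and 5 rule markers. Their share of counts in myelin protein genes was 0.815% and 0.952%. Both lie just under the 1% limit set after the values were seen, and whether they are oligodendrocytes was not tested. The neuron list held 0.163% and 0.204% of their counts. In the wells of 1029, 1087 and 1405 counts the neuron list held 1.29%, 0.771% and 0.713%. Over the other kept wells of plate 1 that list summed to 7080 CPM. The precursor list summed to 5394 CPM in the myelin-low wells of plate 1 against 564 in the myelin-high wells, and the astrocyte list to 6360 against 796, so sums over all 22 members of plate 1 mix these with oligodendrocytes.

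Unspliced counts were a smaller share in members. They made up 27.6% and 19.9% of the summed counts of members on plates 1 and 2, against 29.4% and 26.8% in the others, a difference of -4.33 percentage points averaged over plates (-1.73 and -6.94). In the myelin-high wells the shares were 22.2% and 19.7%, a mean difference of -7.40 points from the kept wells under the limit. Within the myelin-high wells the shares of single genes ranged widely. Cldn11 was 0.395% and 1.27% unspliced and Scd2 was 0% on both plates, while St18 was 89.8% and 84.4%. Dlg2, a synaptic scaffold gene of great length, was 94.5% and 97.6% unspliced, and Pcdh9, a protocadherin, 91.7% and 92.8%. Ugt8a lay between, at 41.9% and 21.3%. The other kept wells had similar shares for Cldn11 (0.740% and 0%), Scd2 (0% and 0.220%) and St18 (89.5% and 100%). Dlg2 stood there at 92.3% and 92.5%, Pcdh9 at 94.3% and 94.0% and Ugt8a at 22.9% and 31.2%. Some myelin transcripts of the myelin-high wells were less fully spliced than Cldn11, with Mog at 12.7% and 5.26% unspliced and Mobp at 6.05% and 9.78%. The other kept wells had Mog at 13.0% and 2.04% and Mobp at 13.6% and 3.33%. Their plate 2 shares rest on 1 unspliced count for each gene. The part of the mostly spliced myelin transcripts in the lower share of whole wells was not tested.

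**Figure D5:**
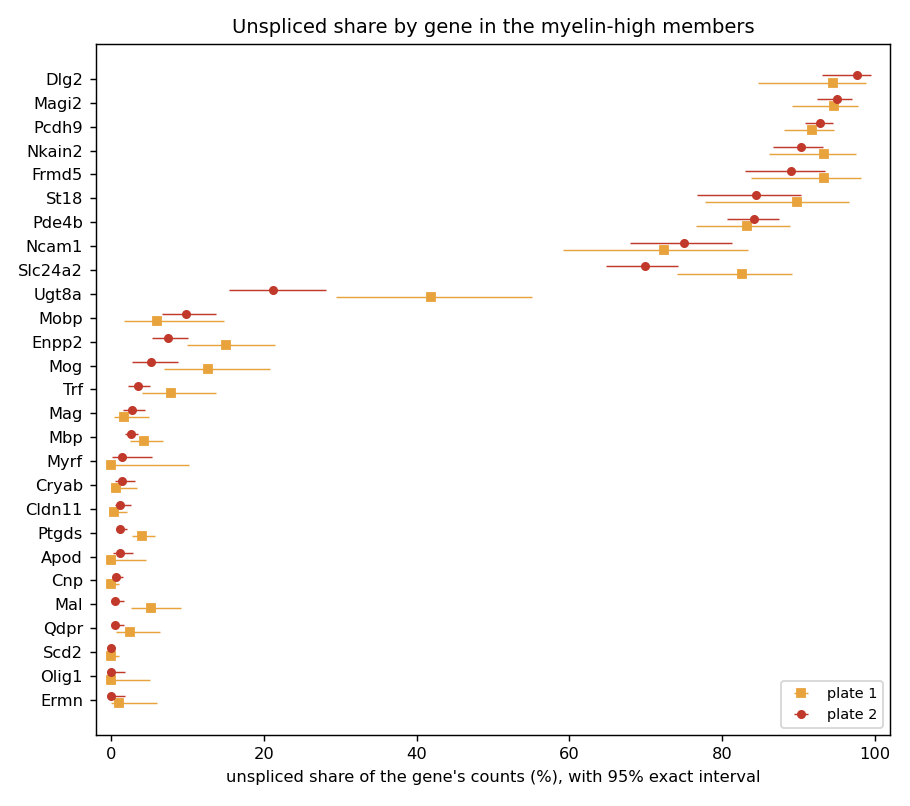
Unspliced share of a gene's counts (%, x axis) in myelin-high members for genes with counts on both plates, with 95% exact intervals; squares are plate 1 and circles plate 2. Myelin genes such as Cnp, Scd2 and Ermn lie at or near 0, and Dlg2, Magi2 and Pcdh9 above 91%.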

How the data were processed

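The authors deposited, per gene and well, expected counts of total, spliced and unspliced transcripts; per the labels' protocols each molecule carries a 6-base UMI, and the values fit UMI counts corrected for collisions (45.5% whole as deposited, 100% whole after undoing the correction, tolerance 1e-06). STAR 2.5.3a and mm10 are named in the submitters' processing notes; the sources used here name neither the counting program nor its use of strand.

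Wells were kept with at least 1000 counts outside spike-ins and mitochondrial genes, 500 genes and at most 20% mitochondrial counts. Deposited values were summed per class and plate. A gene was called at 4-fold on both plates and needed at least 10 summed counts per plate; a class at 0 was set to a floor of 3 counts, and a gene at 0 in members was not called higher, nor one at 0 in the others lower. Fold intervals are exact conditional intervals of 2 Poisson counts, at 95%. Named genes were the rule genes, 19 fixed lists, the 25 genes with the highest smaller fold (at least 10 member counts per plate) and the 10 lowest. Members and lists were chosen with earlier results of these data known; the 1% limit on myelin protein genes and the Klk6 split were added after the data were seen. Coordinates are of GENCODE M21. Some genes of the lists are not reported here. A planned count test of adult against P4 and P7 wells could not be made, since 0 wells there passed the rule. The tools were pandas 2.3.3, numpy 2.4.6, scipy 1.17.1 and matplotlib 3.10.9 under Python 3.11.15. The comparison was also run on simulated counts, which drew all wells from 1 shared profile and changed only genes with many counts. That run does not bear on calls from few counts or on mixed cell types. The 2 adult plates with 50 member wells set the precision.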

Additional observations from a re-analysis of the deposited data

How the results depend on the processing

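The number of members was 36 to 48 under 7 of the other rules tried, with 10 to 20 on plate 1 and 26 to 28 on plate 2 against 22 and 28. It was 91 with no Tac2 limit and 2 when no Tac2 count was allowed, since nearly every adult well had one. Genes called higher numbered 649 at 2-fold, 28 at 8-fold, 119 of 5378 tested (2.21%) with at least 30 counts per plate, 299 of 17636 (1.70%) with no minimum, 93 by the mean of per-well CPM, 112 with no Tac2 count allowed, 72 of 4864 (1.48%) without wells above 3 times the median depth and 356 of 9462 (3.76%) in the myelin-high comparison, which was added after the data were seen. Genes called lower numbered 1264 at 2-fold, 45 at 8-fold, 194 by the mean CPM, 145 (2.98%) without the deep wells and 1 with no Tac2 count allowed. On a single plate, 406 to 837 genes were higher and 665 to 1286 lower, of 9751 to 15326 tested; over the 9708 genes of the comparison, 404 were higher on plate 1 and 571 on plate 2. With no Tac2 count allowed only 2 members remain, 1 on each plate, and the mean log2 fold of Syt1 (0.26) and Pdgfra (3.43) changed sign, while that of Ptgds moved from 4.58 to 0.72. The unspliced difference kept its sign in the 3 alternatives tried.

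No paired analysis was possible because both adult plates are replicates of 1 group, so that their numbers pair no samples across groups, and no result comes from a test. Folds of members over other wells were taken within each plate. The alternatives planned for adult against P4 and P7 wells were not run, since no well there passed. Depth limits the wells of plate 1 most, where 11 of 22 members had under 2000 counts.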
